A study of Mus musculus with 16 samples.

Results

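The 6 neuropeptide precursor genes Penk, Tac1, Pdyn, Nts, Cartpt and Cck were followed in the striatum of mice of 2 inbred strains given risperidone or no drug. Their members on the array are the probe sets that name 1 of these genes and no other gene. There are 7 of them among 45037 probe sets, 2 for Tac1 and 1 for each of the other 5 genes, and the 6 genes stand among 17097 genes named on the array. All 7 probe sets were tested, with no filter on low values.

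Projection neurons make up most of the neurons of the striatum and release neuropeptides beside GABA. Those of the indirect pathway carry the dopamine D2 receptor and make enkephalin from Penk, and those of the direct pathway carry the D1 receptor and make substance P from Tac1 and dynorphin from Pdyn. Nts encodes the precursor of neurotensin, Cartpt that of the CART peptide, which is known from the ventral striatum, and Cck that of cholecystokinin, which cortical neurons also make in large amounts. Risperidone is an antipsychotic that blocks D2 and serotonin receptors, and striatal Penk and Nts are known to respond to drugs that block D2 receptors in rodents.

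Striatal total RNA of 16 males, 7 to 8 weeks old, was hybridised to Affymetrix perfect-match mouse arrays, 4 mice in each of 4 groups and 1 array for each labelled biological replicate. The groups were DBA/2J given risperidone, DBA/2J control, A/J given risperidone and A/J control, from the substrains DBA/2JRccHsd and A/JOlaHsd. Risperidone was injected into the peritoneum at 1 mg/kg once a day for 3 days. The controls carry the label untreated, yet the common treatment protocol mentions saline, and the labels do not settle whether controls were injected. The mice were kept in group cages, and which mice shared a cage is not given in the sources used here. The values are log2 levels after RMA normalization by the authors, so a difference of 1 is a doubling. The number of arrays limits the precision. Levels of different probe sets are not compared as amounts of RNA, because each has its own probes. A position against the array median, or a percentile, is given as a description only, and a low one can come from the probes. In bulk tissue, fewer cells of a type and less RNA per cell cannot be told apart.

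The regions upstream of Tac1, Cck and Cartpt are printed because Tac1 had the largest difference between drug and control relative to its error, Cck passed the test between strains, and Cartpt had the widest spread between mice. Each sequence holds the 250 bases before a transcript start given in the RefSeq table for GRCm38.p6, read 5′ to 3′ on the gene's own strand. For Cartpt that start lies inside the span of the gene record given further on, which reaches farther upstream. Capitals mark a match to TGACG, the core of the cAMP response element, or to the full element TGACGTCA, searched on both strands, where a reverse match reads CGTCA.
Tac1, chr6:7554811-7555060, forward strand: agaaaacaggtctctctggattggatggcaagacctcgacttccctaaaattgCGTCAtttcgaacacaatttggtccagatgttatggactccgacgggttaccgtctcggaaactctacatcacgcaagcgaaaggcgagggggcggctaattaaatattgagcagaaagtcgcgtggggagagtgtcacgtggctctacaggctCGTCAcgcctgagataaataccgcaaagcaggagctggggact
Cck, chr9:121495695-121495944, reverse strand: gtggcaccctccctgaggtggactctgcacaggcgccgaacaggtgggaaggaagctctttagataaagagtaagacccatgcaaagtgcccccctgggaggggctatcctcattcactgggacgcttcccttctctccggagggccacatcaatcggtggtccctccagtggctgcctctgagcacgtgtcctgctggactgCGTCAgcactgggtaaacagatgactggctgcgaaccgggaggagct
Cartpt, chr13:99900684-99900933, reverse strand: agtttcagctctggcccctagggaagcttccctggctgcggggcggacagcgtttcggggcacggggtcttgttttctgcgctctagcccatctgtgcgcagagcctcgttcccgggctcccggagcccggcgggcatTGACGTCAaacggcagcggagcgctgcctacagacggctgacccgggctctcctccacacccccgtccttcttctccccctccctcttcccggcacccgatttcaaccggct
The Tac1 region holds the short element on the reverse strand, with first bases at positions -197 and -43 from the start, and the Cck region holds it at -47. The Cartpt region holds the full element at -112, and its short elements lie within it. The full element occurred in 1.55% of the 32851 upstream regions in the reference table, and the short one in 17.8%. The Nts region (chr10:102490419-102490668, reverse strand) holds the short element at -166 and TGACTCA, the AP-1 motif found in 4.46% of regions, on its reverse strand at -207. Neither of the 2 upstream regions annotated for Pdyn holds any of these letters. The reference table has no upstream region for Penk, so Penk was not searched. A match of letters is a description and says nothing about whether a factor binds there.

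The label of the tissue was set against marker genes. Ppp1r1b, which encodes the projection neuron phosphoprotein DARPP-32, ranged in log2 level between 5.99 and 7.57, and Drd1, the D1 receptor gene, between 5.85 and 6.51, all above their arrays' medians, which lay between 5.66 and 5.71. Drd2, the D2 receptor gene, lay between 3.62 and 4.90, below the median of every array, and its mean was at the 17.2 percentile of all probe sets. Of 15 striatal projection neuron markers measured, 13 had a mean above the median of all probe sets and 2, Drd2 and Isl1, had one below it. Markers of neighbouring tissue were also read. Slc17a7, the glutamate transporter of cortical neurons, lay between 9.52 and 10.20, the cortical transcription factor gene Tbr1 between 8.06 and 8.79, the thalamic transcription factor gene Tcf7l2 between 5.81 and 8.98, and Ttr, made by the choroid plexus, between 6.0 and 11.97. Of 14 cortex markers 1 had a mean below the median of all probe sets, as did 3 of 11 thalamus markers and 9 of 11 choroid plexus and ependyma markers. Of 14 markers of the hypothalamus and extended amygdala 12 had a mean below that median, among them the hypothalamic peptide genes Hcrt (at most 5.03) and Pmch (at most 5.99), while Oxt (6.76 to 7.08) and Crh (6.64 to 8.02) lay above it. The peptide genes are therefore described as genes of this tissue sample, not as genes of a purified neuron type.

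**Figure D1:**
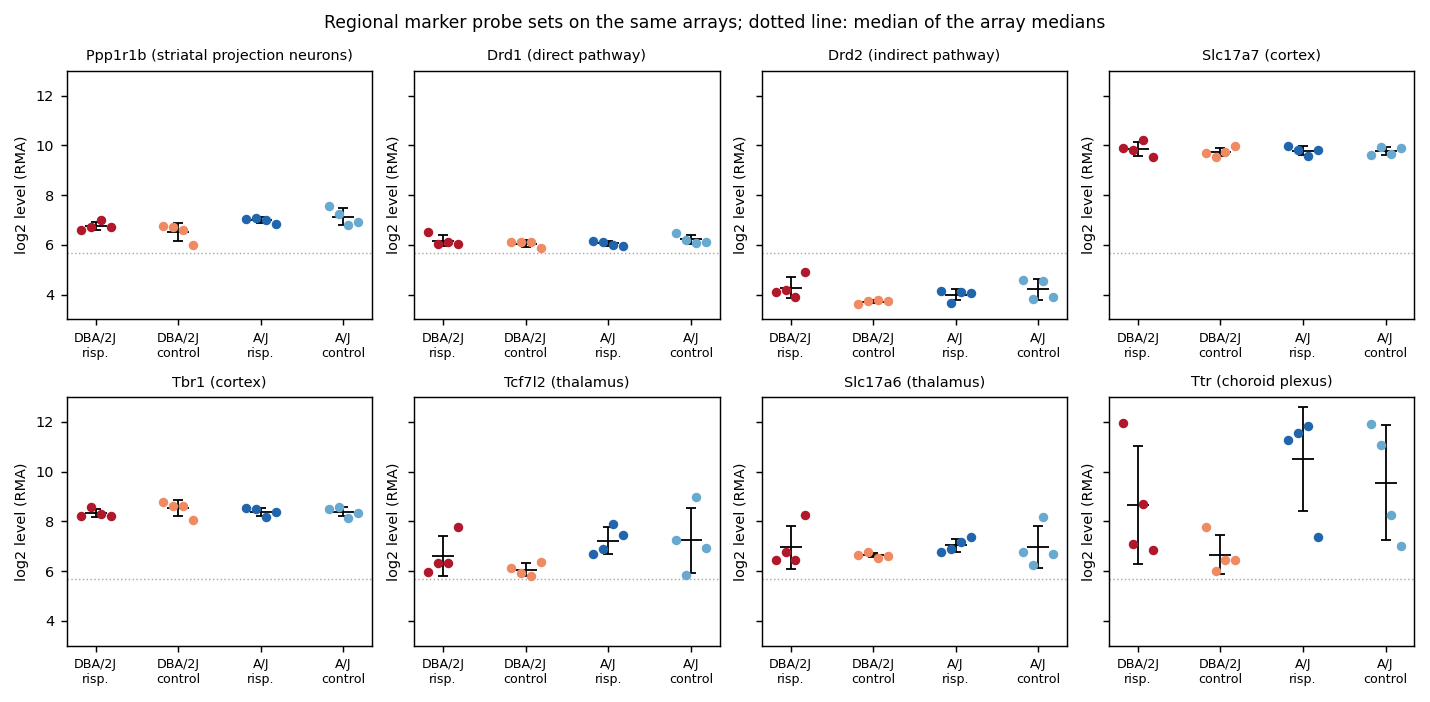
Log2 level (RMA, vertical axis) of 8 marker genes of striatum, cortex, thalamus and choroid plexus in each of the 4 groups, 1 point per array, with mean and SD (n = 4). The dotted line is the median of the array medians (5.68). Drd2 lies below it in all 16 arrays, Slc17a7 and Tbr1 lie above it, and Ttr varies between arrays of 1 group.

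Several arrays stood apart. At strain marker probe sets, a share of 0% means the level of A/J control mice and 100% that of DBA/2J control mice. A/J risperidone replicates 1, 2 and 4 had shares of 27.9%, 36.2% and 39.1%, and replicate 3 had 0.584%. The DBA/2J risperidone arrays lay between 87.6% and 101.5654%, the DBA/2J control arrays between 96.1% and 103.2489%, and the A/J control arrays between -2.30% and 0.993%. DBA/2J control replicate 4 had the lowest correlations with other arrays, between 0.970 and 0.979. The labels' description text is the same for DBA/2J risperidone replicates 2, 3 and 4, whose titles and values differ. Values without these arrays stand beside some of the results they touch, not beside all. The fit without the 3 intermediate A/J risperidone arrays rests on 1 A/J risperidone array, which is assumed to vary like the other groups.

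The first question was whether risperidone changed the peptide genes. In DBA/2J mice Tac1 was the member with the smallest p, 0.83 higher in log2 after risperidone (a 1.78-fold difference), and Cartpt and Penk had mean differences of 0.83 and 0.475 within a wide spread between mice. None of the 7 probe sets passed the test in DBA/2J (0 of 7 at an adjusted p under 0.05 by limma, while 0.0400% of all probe sets passed). At an unadjusted p under 0.05 there was 1 of 7, Tac1, against 10.7% of all probe sets. In A/J mice 0 of 7 passed the adjusted test, as did 0.00% of all probe sets, and 0 of 7 had an unadjusted p under 0.05, against 5.51% of all. Averaged over both strains 0 of 7 passed, against 0.0266% of all, with 1 of 7, Tac1, at an unadjusted p under 0.05, against 6.90% of all. The median difference of the 7 was 0.095 in DBA/2J, with 6 above 0 and 1 below, and -0.1325 in A/J, with 2 above 0 and 5 below. The median over all probe sets was -0.005 in DBA/2J.

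The second question was whether the strains differ. Cck was lower in control mice of DBA/2J than of A/J (log2 difference -0.325) and was the only member to pass in any of the 6 comparisons. In control mice 1 of 7 probe sets passed, with 3.87% of all probe sets called and 1.86% called lower, and 1 of 7 had an unadjusted p under 0.05, against 17.7% of all. Among risperidone mice 0 of 7 passed, against 0.782% of all, and 1 of 7, Penk, had an unadjusted p under 0.05, against 9.43% of all. The response to risperidone did not pass as different between the strains for any member (0 of 7 for the interaction, with 0.00% of all probe sets called and 0 of 7 against 9.19% of all at an unadjusted p under 0.05).

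**Figure D2:**
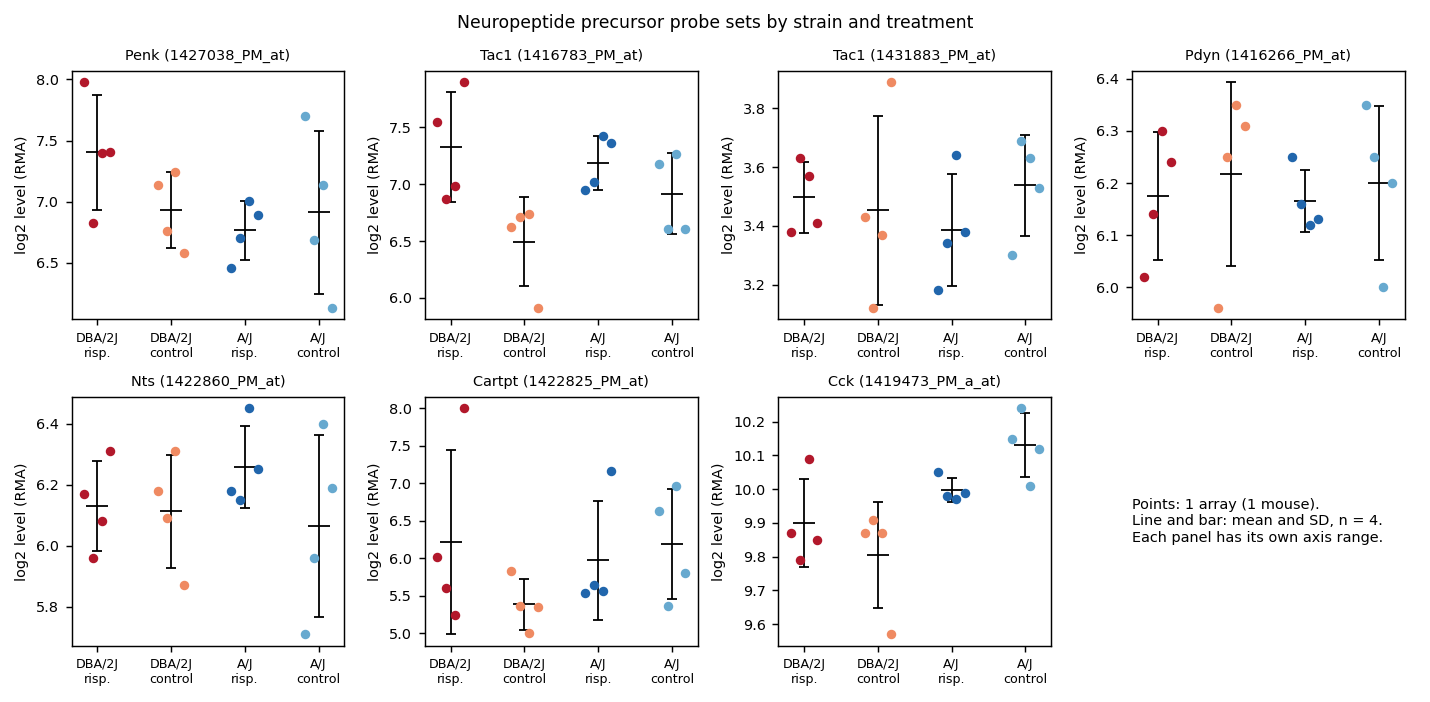
Log2 level (RMA, vertical axis) of the 7 neuropeptide probe sets in the 4 groups, 1 point per array, with mean and SD (n = 4). Each panel has its own axis range. Tac1 (1416783_PM_at) does not overlap between DBA/2J risperidone and control mice, Cck does not overlap between DBA/2J and A/J control mice, and single high arrays stand out for Cartpt.

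Penk, the enkephalin precursor of the indirect pathway (probe set 1427038_PM_at, gene at chr4:4133536-4138815 on GRCm38.p6), had log2 levels of 7.98, 6.83, 7.40 and 7.41 in DBA/2J risperidone replicates 1 to 4, against 7.14, 6.76, 7.24 and 6.58 in the DBA/2J control replicates. It had 6.46, 6.70, 7.01 and 6.89 in A/J risperidone mice, against 7.70, 6.69, 7.14 and 6.13 in A/J control mice. In DBA/2J, 3 of the 4 risperidone arrays were above every control array and replicate 2 was not, and the A/J control mice covered the range of both A/J groups. The difference between risperidone and control was 0.475 ± 0.27 in DBA/2J (SE, n = 4 per group, 95% interval -0.083 to 1.03, limma adjusted p = 0.526). It was 0.2833 without risperidone replicate 1 and 0.1556 with striatal and cortical marker levels as covariates. In A/J it was -0.15 ± 0.27 (95% interval -0.708 to 0.408, adjusted p = 0.997). The interaction was 0.625 ± 0.38 (adjusted p = 0.615). With the 1 A/J risperidone array whose strain markers match A/J, the A/J value was 0.095 and the interaction 0.38. Among risperidone mice Penk averaged 7.41 ± 0.47 in DBA/2J and 6.77 ± 0.24 in A/J (SD, n = 4 each). The difference of 0.64 ± 0.27 (95% interval 0.082 to 1.20) did not pass (adjusted p = 0.438), and the groups overlapped. Among control mice it averaged 6.93 ± 0.31 in DBA/2J and 6.92 ± 0.67 in A/J, a difference of 0.015 (adjusted p = 0.986). The array with the highest Penk, DBA/2J risperidone replicate 1, was also the one with the highest choroid plexus marker level of its group (5.89, the others between 4.59 and 4.81), and the part of that tissue in its value was not tested. Indirect pathway markers without Penk (4 of 9) overlapped between DBA/2J risperidone (5.3225 to 5.5575) and DBA/2J control mice (5.2825 to 5.325). Drd2, 1 of the 4, was 3.89 to 4.90 and 3.62 to 3.79 in these groups, without overlap but below every array's median. Such groups were found for 4.40% of all probe sets in DBA/2J, 1.89% in this direction. The list had 0 calls, and the part of these cells in the Penk difference was not tested.

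Nts, the neurotensin precursor (1422860_PM_at, chr10:102481756-102490418), varied little. Its log2 levels were 6.17, 5.96, 6.08 and 6.31 in DBA/2J risperidone mice, against 6.18, 6.09, 6.31 and 5.87 in DBA/2J control mice, and 6.18, 6.15, 6.45 and 6.25 in A/J risperidone mice, against 5.71, 5.96, 6.40 and 6.19 in A/J control mice. All 4 groups overlapped. The difference between risperidone and control was 0.0175 ± 0.13 in DBA/2J (95% interval -0.256 to 0.291, limma adjusted p = 0.972), and its sign turned in several settings given under the processing. It was 0.1925 ± 0.13 in A/J (95% interval -0.0811 to 0.466, adjusted p = 0.959), 0.0742 without A/J control replicate 1, 0.3042 without A/J control replicate 3, and 0.385 with the 1 A/J risperidone array whose strain markers match A/J. A change of over 0.291 in DBA/2J or over 0.466 in A/J lies outside these intervals. The strain difference was 0.0475 in control mice (adjusted p = 0.890) and -0.1275 in risperidone mice (adjusted p = 0.832).

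Tac1, the substance P precursor of the direct pathway (chr6:7555061-7562978), is read by 2 probe sets. The probe set 1416783_PM_at had log2 levels of 7.55, 6.87, 6.98 and 7.90 in DBA/2J risperidone mice, against 6.62, 6.71, 6.74 and 5.91 in DBA/2J control mice. It had 6.95, 7.02, 7.42 and 7.36 in A/J risperidone mice, against 7.18, 6.61, 7.27 and 6.61 in A/J control mice. The lowest DBA/2J risperidone array, at 6.87, was above the highest DBA/2J control array, at 6.74, while the A/J groups overlapped. Groups that do not overlap were also found for 4.40% of all probe sets in DBA/2J, and 1.89% lay in this direction. In A/J, 0 of 7 members had groups that do not overlap, against 4.42% of all probe sets. The group means were 7.33 ± 0.49 in DBA/2J risperidone and 6.495 ± 0.39 in DBA/2J control mice, and 7.19 ± 0.24 in A/J risperidone and 6.92 ± 0.36 in A/J control mice (SD, n = 4 each). The DBA/2J difference of 0.83 ± 0.22 (SE, 95% interval 0.358 to 1.30) had a limma p of 0.00164 and an adjusted p of 0.218, so it did not pass. In A/J the difference was 0.27 ± 0.22 (95% interval -0.202 to 0.742, adjusted p = 0.982), and 0.5025 with the 1 A/J risperidone array whose strain markers match A/J. The mean over both strains was 0.55 ± 0.16 (95% interval 0.216 to 0.884, adjusted p = 0.458) and the interaction 0.56 ± 0.32 (adjusted p = 0.593).

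The Tac1 difference in DBA/2J was smaller without its 2 most extreme arrays. It was 0.635 without DBA/2J control replicate 4, the lowest array, and 0.6383 without DBA/2J risperidone replicate 4, the highest. Without both it was 0.4433 ± 0.20 (limma adjusted p = 0.519), and the remaining arrays still did not overlap. Leaving out both was chosen after seeing the data. Removing the lowest control and the highest risperidone value can only shrink the difference, so this does not test it. Mean levels of some marker lists also lay apart between DBA/2J risperidone and DBA/2J control mice, by small margins, while others overlapped. These lists are part of 18, and their means were not tested. In the lists named here 0 genes passed for risperidone in DBA/2J. The mean level of 10 of 12 ventral striatum and olfactory tubercle markers lay between 6.88 and 7.11 in DBA/2J risperidone mice and between 6.72 and 6.86 in DBA/2J control mice, with no overlap, and striatal interneuron markers (14 of 15; 6.92 to 7.11 in risperidone and 6.84 to 6.91 in control mice) and astrocyte markers (11 of 11; 8.34 to 8.59 in risperidone and 8.27 to 8.32 in control mice) did not overlap either. Thalamus markers (11 of 12) lay between 6.16 and 6.71 in DBA/2J risperidone mice and between 6.08 and 6.17 in DBA/2J control mice, with an overlap, and DBA/2J risperidone replicate 4 was the highest of its group in both thalamus markers and Tac1. Choroid plexus and ependyma markers (11 of 13) had a median difference of 0.285, with 10 of 11 above 0, and lay between 4.59 and 5.89 in DBA/2J risperidone mice and between 4.38 and 4.65 in DBA/2J control mice. Markers of striatal projection neurons (15 of 21; 7.09 to 7.16 in DBA/2J risperidone and 7.02 to 7.10 in DBA/2J control mice) overlapped. Those of direct pathway neurons without the members (6 of 9) overlapped too, at 5.045 to 5.22 in DBA/2J risperidone and 4.99 to 5.21 in DBA/2J control mice. The part of these cells and tissues in the Tac1 difference was not tested. With the levels of striatal and cortical markers as covariates, the difference was 0.4994 (adjusted p = 0.481).

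The second Tac1 probe set, 1431883_PM_at, had a mean at the 9.91 percentile of all probe sets, and its log2 levels over all 16 arrays ran from 3.12 to 3.89. They were 3.38, 3.63, 3.57 and 3.41 in DBA/2J risperidone mice, against 3.43, 3.12, 3.37 and 3.89 in DBA/2J control mice, and 3.18, 3.34, 3.64 and 3.38 in A/J risperidone mice, against 3.30, 3.69, 3.63 and 3.53 in A/J control mice. The difference was 0.045 ± 0.14 in DBA/2J (limma adjusted p = 0.929) and -0.1525 in A/J (adjusted p = 0.987). This probe set did not follow the first one, whose DBA/2J difference was 0.83.

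Pdyn, the dynorphin precursor of the direct pathway (1416266_PM_at, chr2:129686549-129699938), had the narrowest range of the 7 probe sets over the 16 arrays. Its log2 levels were 6.02, 6.14, 6.30 and 6.24 in DBA/2J risperidone mice, against 5.96, 6.25, 6.35 and 6.31 in DBA/2J control mice, and 6.25, 6.16, 6.12 and 6.13 in A/J risperidone mice, against 6.35, 6.25, 6.0 and 6.20 in A/J control mice. The 4 groups overlapped, and their means lay between 6.165 and 6.2175. The difference between risperidone and control was -0.0425 ± 0.10 in DBA/2J (95% interval -0.248 to 0.163, limma adjusted p = 0.900) and -0.035 ± 0.10 in A/J (95% interval -0.24 to 0.17, adjusted p = 0.997). With the 1 A/J risperidone array whose strain markers match A/J, the A/J difference was -0.08.

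Cartpt, the CART peptide precursor (1422825_PM_at, chr13:99898483-99910179), had the widest spread of the members. Its log2 levels were 6.02, 5.60, 5.25 and 8.00 in DBA/2J risperidone mice, against 5.83, 5.36, 5.01 and 5.35 in DBA/2J control mice, and 5.54, 5.64, 5.56 and 7.16 in A/J risperidone mice, against 6.63, 5.37, 6.97 and 5.81 in A/J control mice. One array in each risperidone group, replicate 4, was far above the other 3, and 2 A/J control arrays, replicates 1 and 3, were also high. The mean difference of 0.83 ± 0.48 in DBA/2J (95% interval -0.18 to 1.84, limma adjusted p = 0.538) became 0.2358 without risperidone replicate 4, and in A/J the difference was -0.22 ± 0.48 (95% interval -1.23 to 0.79, adjusted p = 0.997). With the 1 A/J risperidone array whose strain markers match A/J, which leaves out replicate 4, the A/J difference was -0.635. DBA/2J control mice averaged 5.39 ± 0.34 and A/J control mice 6.20 ± 0.73 (SD, n = 4 each), a difference of -0.8075 that did not pass (adjusted p = 0.400). DBA/2J risperidone replicate 4 also had the highest thalamus marker level of its group (6.71), and A/J control replicate 3, with Cartpt at 6.97, had the highest of all arrays (7.57). The other 2 high arrays went the other way. A/J risperidone replicate 4 had a thalamus level of 6.63, below replicate 3 of its group (6.94), whose Cartpt was 5.56. A/J control replicate 1 had 6.58, below replicate 4 (6.62), whose Cartpt was 5.81. Whether tissue beside the striatum contributes to these Cartpt levels was not tested.

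Cck, the cholecystokinin precursor (1419473_PM_a_at, chr9:121489824-121495694), was the member at the highest percentile of the array, 98.0 over all probe sets. Its log2 levels were 9.87, 9.79, 10.09 and 9.85 in DBA/2J risperidone mice, against 9.87, 9.91, 9.87 and 9.57 in DBA/2J control mice, and 10.05, 9.98, 9.97 and 9.99 in A/J risperidone mice, against 10.15, 10.24, 10.01 and 10.12 in A/J control mice. Every DBA/2J control array was below every A/J control array. Control groups of the strains did not overlap for 9.33% of all probe sets, and for 4.42% DBA/2J was the lower. Among risperidone mice 0 of 7 members had strains that do not overlap, against 7.68% of all probe sets. The means were 9.81 ± 0.16 in DBA/2J and 10.13 ± 0.09 in A/J control mice (SD, n = 4 each), and the difference of -0.325 ± 0.09 (SE, 95% interval -0.513 to -0.137) passed at a limma adjusted p of 0.0488. Among risperidone mice DBA/2J averaged 9.90 ± 0.13 and A/J 10.00 ± 0.04, a difference of -0.0975 (adjusted p = 0.806). This A/J mean includes the 3 arrays with intermediate strain markers, replicates 1, 2 and 4, at 10.05, 9.98 and 9.99. Replicate 3, whose strain markers match A/J, was at 9.97. The same arrays enter the A/J risperidone difference and the interaction that follow. The risperidone difference was 0.095 ± 0.09 in DBA/2J (95% interval -0.0927 to 0.283, adjusted p = 0.721), at 0.0167 without DBA/2J control replicate 4 and 0.0317 without DBA/2J risperidone replicate 3, and -0.1325 ± 0.09 in A/J (95% interval -0.32 to 0.0552, adjusted p = 0.959), and the interaction of 0.2275 ± 0.13 did not pass (adjusted p = 0.588).

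The Cck call in control mice was close to the threshold. It was lost when any 1 of 15 of the 16 arrays was left out, with adjusted p between 0.0546 and 0.126, and stayed only without DBA/2J risperidone replicate 3. Without DBA/2J control replicate 4, the lowest array, the difference was -0.2467 (adjusted p = 0.109), and the remaining arrays still did not overlap. Cortex markers (14 of 15) lay between 8.57 and 8.73 in DBA/2J control mice and between 8.36 and 8.69 in A/J control mice, and with the cortex and striatal marker levels as covariates the Cck difference was -0.4178 (adjusted p = 0.123). The striatal marker genes Ppp1r1b (-0.6125, adjusted p = 0.0443) and Pde10a, a striatal phosphodiesterase gene (-0.43, adjusted p = 0.0247), were likewise lower in control mice of DBA/2J than of A/J, and the cortical transcription factor gene Fezf2 was higher (0.4675, adjusted p = 0.0104). Ppp1r1b was lowest in DBA/2J control replicate 4, at 5.99 against 6.60 to 6.76 in the other arrays of that group. In this comparison 3.87% of all probe sets were called, and 1.86% called lower. Of the lists, 2 of 15 striatal markers were called lower, with 11 below 0, and 1 of 14 cortex markers was called higher, with 9 above 0 and 5 below. All 11 thalamus markers were below 0 (median -0.5825, 2 called lower), and their level averaged 6.13 ± 0.04 in DBA/2J control mice and 6.73 ± 0.60 in A/J control mice (SD, n = 4 each). The part of these tissues in the Cck difference was not tested.

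**Figure D3:**
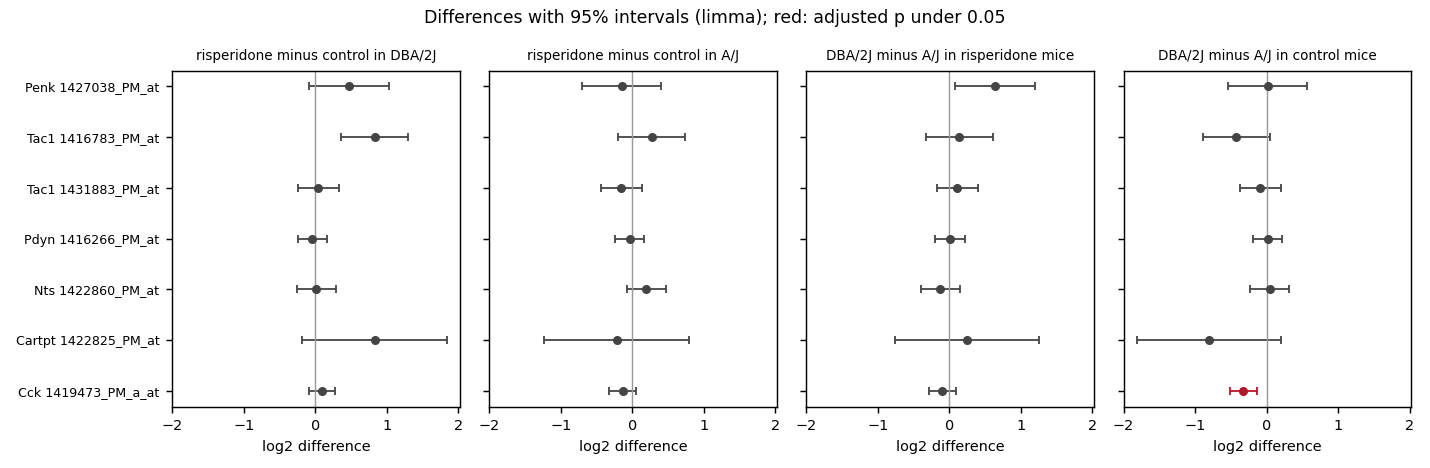
Log2 differences (horizontal axis) of the 7 neuropeptide probe sets in 4 comparisons, with 95% intervals from limma over all 16 arrays. Cck between strains in control mice, in red, is the only one with an adjusted p under 0.05; the interval for Tac1 in DBA/2J (0.358 to 1.30) lies above 0 without passing after adjustment.

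Receptor genes of the opioid, tachykinin, neurotensin and cholecystokinin families were read too, not all of them for peptides of the 6 members. Of these 13, 0 passed for risperidone in DBA/2J (0.0400% of all probe sets did) and 0 in A/J (0.00% of all). The neurotensin receptor gene Ntsr2, 1 of the 13, was lower in control mice of DBA/2J than of A/J, a comparison where 3.87% of all probe sets were called and 1.86% called lower. Ntsr2 averaged 8.43 ± 0.09 in DBA/2J and 8.76 ± 0.16 in A/J control mice (SD, n = 4 each), a difference of -0.33 ± 0.09 (SE, limma adjusted p = 0.0437). Oprm1, the mu opioid receptor gene, averaged 6.65 in DBA/2J risperidone and 6.17 in DBA/2J control mice, a difference of 0.48 that did not pass (adjusted p = 0.306), and Cckbr, a cholecystokinin receptor gene, had a difference of -0.29 (adjusted p = 0.394). Oprd1, the delta opioid receptor gene, had a difference of -0.1575 in DBA/2J (adjusted p = 0.585) and 0.185 in A/J (adjusted p = 0.945). The median difference over the 13 was 0.0025 in DBA/2J and -0.0025 in A/J.

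Genes that cut, pack and degrade peptides came next. Of 16 genes of peptide processing and the secretory granule, 0 passed for risperidone in either strain (0.0400% of all probe sets in DBA/2J and 0.00% in A/J), and 1 was higher in control mice of DBA/2J than of A/J (3.87% of all probe sets were called), Vgf, which encodes a granin-like peptide precursor (9.68 ± 0.06 in DBA/2J and 9.24 ± 0.13 in A/J, difference 0.44 ± 0.08, limma adjusted p = 0.00449). Pcsk1, the prohormone convertase gene that cuts several of these precursors, had a DBA/2J risperidone difference of -0.2575 (adjusted p = 0.459), and Cpe, the carboxypeptidase gene that trims the cut ends, one of 0.1625 (adjusted p = 0.439). Of 12 peptidase genes of peptide degradation, 0 passed in any of the 6 comparisons.

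Some other neuropeptide genes differed between the strains. Of 26 measured, 4 were higher in control mice of DBA/2J than of A/J and 0 were lower, beside the 3.87% of all probe sets called. These were Grp, the gastrin-releasing peptide gene (7.58 ± 0.20 in DBA/2J and 6.81 ± 0.22 in A/J, difference 0.77, limma adjusted p = 0.00567), Crh, the corticotropin-releasing hormone gene (0.7575, adjusted p = 0.00924), Vip, the vasoactive intestinal peptide gene (0.73, adjusted p = 0.00434), and Tac2, the neurokinin B precursor gene (0.4425, adjusted p = 0.0399). For risperidone 0 of 26 passed in DBA/2J and 0 in A/J. Crh came nearest in DBA/2J, at 6.95 in risperidone and 7.79 in control mice (difference -0.8375, adjusted p = 0.0795).

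A list of 20 genes held, among others, CREB and AP-1 transcription factors, which bind the motifs above, and activity-dependent early genes. It was chosen with earlier results of these data known. In DBA/2J 4 were lower after risperidone (Egr2, Fos, Arc and Egr1) and 0 were higher, beside the 0.0400% of all probe sets called. Of these 4, only Fos is part of a factor named here for those motifs. Fos, a subunit of AP-1, averaged 7.97 ± 0.21 in DBA/2J risperidone and 8.78 ± 0.14 in DBA/2J control mice (difference -0.8075, limma adjusted p = 0.00284). No peptide member passed in this comparison, and a link between these listed genes and the members was not tested. Of the 20, 16 were below 0, with a median of -0.1575. In A/J 0 of 20 passed, as did 0.00% of all probe sets, with Fos at -0.55 (adjusted p = 0.123). For the interaction 0 of 20 passed as well, against 0.00% of all. In the mean of both strains 3 of 20 were called lower, beside the 0.0266% of all probe sets called. Between strains in control mice 2 of 20 were called higher in DBA/2J than in A/J, where 3.87% of all probe sets were called.

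Levels of the members across mice were compared within each strain, over 8 arrays of both treatments, without subtraction of group means. The A/J arrays include those with intermediate strain markers, and the correlations were not run without them. Of 30 correlations between members, 5 had an exact permutation p under 0.05 and 0 passed after adjustment over the 30 (smallest adjusted p = 0.182). In DBA/2J, Penk and Tac1 had a Pearson r of 0.769 (exact permutation p = 0.0291, adjusted p = 0.260) and a Spearman rho of 0.857 (p = 0.0107, adjusted p = 0.161), and r was 0.546 without the 2 arrays farthest from the median. In A/J, Pdyn and Nts had an r of -0.876 and a rho of -0.886 (exact permutation p = 0.00605 for each, adjusted p = 0.182 and 0.161), and r was -0.763 without 2 arrays.

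Members were also set against mean marker levels of 4 tissues, a family of 48 correlations added after the data had been seen. For r 0 passed after adjustment and for rho 2 passed, both in A/J and both with cortex markers. These A/J correlations also include the arrays with intermediate strain markers and were not run without them, and group means were not subtracted. Pdyn had an r of 0.926 (exact permutation p = 0.00159, adjusted p = 0.0762) and a rho of 0.970 (adjusted p = 0.0238), with an r of 0.773 without 2 arrays. Nts had an r of -0.808 (adjusted p = 0.229) and a rho of -0.952 (adjusted p = 0.0274), with an r of -0.834 without 2 arrays. In DBA/2J the r of Pdyn with cortex markers was -0.252 (adjusted p = 0.747), and whether the strains differ in this was not tested. Cartpt and thalamus markers in DBA/2J had an r of 0.933 (exact permutation p = 0.0304, adjusted p = 0.233) and a rho of 0.524 (adjusted p = 0.524), and r was -0.184 without 2 arrays, so the relation rests on those arrays.

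**Figure D4:**
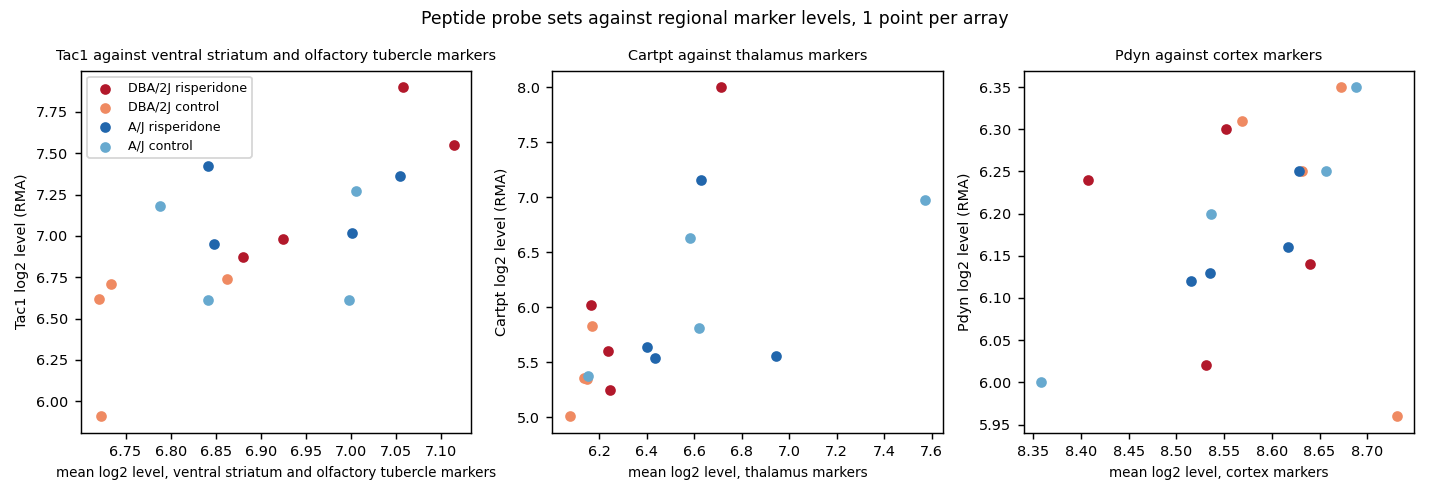
Log2 levels (RMA) of Tac1, Cartpt and Pdyn on the vertical axes against mean log2 levels of ventral striatum, thalamus and cortex markers on the horizontal axes, 1 point per array, coloured by group. The DBA/2J risperidone arrays lie right of the DBA/2J control arrays in the first panel, and 1 DBA/2J risperidone array with Cartpt at 8.00 stands alone in the second.

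The genes whose levels across arrays were most like each member are given as a description, by Pearson r over 16 arrays after subtraction of the group means, among up to 5662 genes with a mean log2 level of at least 7. For Penk they were Ctnnb1 (r = 0.923), Ptges3 (0.917), Rnaset2a (0.898) and Top1mt (0.872), and for Tac1 6330509M05Rik (0.893), Abtb2 (0.881), Efcab14 (0.875) and Anxa5 (0.874). Those of Nts were Gsr (0.897), Sgk1 (0.879), Lrrc8a (0.864) and Pdk2 (0.854), and those of Pdyn Abhd2 (0.865), Ggps1 (0.793), Elmo2 (0.785) and Nlgn1 (0.783). Those of Cartpt were Zcchc12 (0.911), Hsp90b1 (0.897), Ywhaq (0.880) and Minar2 (0.869), and those of Cck were Dynll1 (0.906), Tmsb4x (0.905), Clstn2 (0.895) and Agbl4 (0.876). Without that subtraction r stayed at 0.908 for Cartpt and Zcchc12 and at 0.875 for Cck and Dynll1, and was 0.418 for Cartpt and Hsp90b1 and 0.650 for Penk and Ctnnb1. The highest of so many r values over 16 arrays is high by selection, and the arrays share their normalization.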

How the data were processed

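RNA levels in 16 striatum samples, 4 in each of 4 groups taken from the labels, were deposited by the authors as log2 values per probe set after RMA, per the submitters' processing notes; its version and other upstream steps are not given in the sources used here. The array holds 45141 probe sets; after removal of 104 controls, 45037 were tested. Of these, 28898 name 1 gene, 551 several and 15588 none in the platform's annotation, and 28689 matched GRCm38.p6 by Entrez ID, with 0 symbols changed. A gene with several probe sets is represented in lists by the one with the highest mean.

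A linear model with 4 group means over all 16 arrays was fitted with limma 3.58.1 in R 4.3.3 (lmFit, eBayes), two-sided, with Benjamini-Hochberg adjustment over all 45037 probe sets in each of 6 comparisons and a threshold of 0.05. The fit was tested on simulated data. Correlations, in Python 3.11.15, used exact two-sided permutation tests over 8 arrays of a strain. The strain share of an array is the median position of its unlogged value between the strains' control means, over 46 to 49 marker probe sets (adjusted p under 0.01, log2 difference at least 1.5, level at least 7).

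The members, the gene lists and the tests were chosen with earlier results of these data known. The rule for named genes takes every member, the list genes called in a comparison, up to 4 more per list with the smallest p, and set markers. Replicate numbers were not used as pairs, since of 4 correlations between same-numbered arrays in each of 4 comparisons only 1 or 2 were over 0.1. Alternatives were median centring, quantile normalization run again, a single probe set per gene, only probe sets above the median level, a trended and robust eBayes, array weights, a replicate block, only the arrays compared, leaving out each array, leaving out doubtful arrays, and tissue markers or the strain share as covariates.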

Additional observations from a re-analysis of the deposited data

Results flagged for a closer look

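Each group of 4 arrays was tested for a single array far from the others by Dixon's test, 28 groups in all, and chance flags about 1 group in 20. There were 3 such arrays. Tac1 (1416783_PM_at) was low in DBA/2J control replicate 4, at 5.91 against 6.62 to 6.74 in the other 3, a gap of 0.855 of the group's range. Cck was low in the same array, at 9.57 against 9.87 to 9.91, a gap of 0.882 of the range. Cartpt was high in A/J risperidone replicate 4, at 7.16 against 5.54 to 5.64, a gap of 0.938 of the range. The first array also had the lowest correlations with the other arrays, and the Cartpt array is 1 of the 3 with intermediate strain markers.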

How the results depend on the processing

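The 0 calls among the peptide probe sets for risperidone in DBA/2J, in A/J, in the mean of both strains and in the interaction, and the 0 calls between strains in risperidone mice, were the same under every alternative run. The 1 call between strains in control mice, Cck, was kept with a second quantile normalization, median centring (-0.3475), probe sets above the median level, 1 probe set per gene, and the trend and robust options, at adjusted p between 0.0171 and 0.0490. The count was 0 with array weights (-0.2567, adjusted p = 0.0700), only the 8 arrays compared (0.164), without the 3 intermediate A/J risperidone arrays (0.114), with striatal and cortex marker levels as covariates (-0.4178, 0.123) and without DBA/2J control and risperidone replicates 4 (-0.2467, 0.110). With the replicate number as a block, which does not pair these samples, the count was 0 as well (adjusted p = 0.0634), and no other count changed. With 1 array left out the count ran from 0 to 1 and the Cck difference from -0.365 to -0.2467. The cause of these losses was not tested. Samples were few, and 4 arrays per group limit what differences could pass. The strain share as a covariate was not run for the 2 strain comparisons, since it follows strain.

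Signs that turned belong to differences that did not pass. Without the 3 A/J risperidone arrays, Penk was 0.095 and Tac1 (1431883_PM_at) 0.1025 for risperidone in A/J, the same Tac1 probe set 0.0737 in the mean of strains and -0.0575 in the interaction, Pdyn 0.0375 in the interaction, and Tac1 -0.095 (1416783_PM_at) and -0.1425 (1431883_PM_at) between strains in risperidone mice. With marker levels as covariates, Penk was 0.1828 and Cartpt 0.1766 for risperidone in A/J, Nts -0.0752 and Cartpt -0.0086 in DBA/2J, Cck 0.0092 in the mean, Penk -0.0271, Pdyn 0.0046 and Cartpt -0.1852 in the interaction, and Tac1 (1416783_PM_at) 0.0501 and Cartpt 0.2831 between strains in control mice. With the strain share as a covariate, Penk was 0.077 and Tac1 (1431883_PM_at) 0.0245 in A/J, Nts -0.0041 in DBA/2J, Tac1 (1431883_PM_at) 0.0205 in the mean and -0.008 in the interaction, and Pdyn 0.0241 in the interaction. With array weights, Nts was -0.07 in DBA/2J and Tac1 (1431883_PM_at) 0.0229 in the mean. With median centring, Pdyn was 0.015 in the interaction and -0.005, and Penk -0.0075, between strains in control mice. Without the 2 DBA/2J arrays, an alternative chosen after seeing the data, Nts was -0.1233 in DBA/2J, Tac1 (1431883_PM_at) 0.0337 in the mean, Pdyn 0.0017 in the interaction, -0.0133 between strains in control and -0.0117 in risperidone mice, and Tac1 (1416783_PM_at) -0.0542 and Cartpt -0.3517 between strains in risperidone mice. Without 2 arrays the correlation of Cartpt with thalamus markers in DBA/2J was -0.184.

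With 1 array left out, differences that crossed 0 ran, for risperidone in A/J, from -0.4117 to 0.1117 (Penk), -0.1017 to 0.015 (Pdyn) and -0.615 to 0.0383 (Cartpt). In DBA/2J they ran from -0.0658 to 0.1908 (Tac1, 1431883_PM_at), -0.1283 to 0.0092 (Pdyn) and -0.0633 to 0.0833 (Nts), in the mean from -0.1092 to 0.0192 (Tac1, 1431883_PM_at), and in the interaction from -0.0933 to 0.0592 (Pdyn). Between strains in risperidone mice they ran from -0.0542 to 0.2892 (Tac1, 1416783_PM_at), -0.0317 to 0.0617 (Pdyn) and -0.3517 to 0.6375 (Cartpt). In control mice they ran from -0.2467 to 0.2767 (Penk), -0.2308 to 0.0258 (Tac1, 1431883_PM_at), -0.0492 to 0.1033 (Pdyn) and -0.0708 to 0.1592 (Nts).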

Other observations

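Some glial marker genes were lower in control mice of DBA/2J than of A/J, where 3.87% of all probe sets were called. They were 2 of 11 oligodendrocyte, 2 of 9 microglia and 1 of 11 astrocyte markers, with 0 called higher, and the other markers of these lists did not pass. Examples are Mog, a myelin gene (6.19 ± 0.34 in DBA/2J and 7.61 ± 0.32 in A/J, SD, n = 4 each, difference -1.42, limma adjusted p = 6.28e-05), and Cx3cr1, a microglial receptor gene (6.68 ± 0.40 in DBA/2J and 7.73 ± 0.08 in A/J, difference -1.05, adjusted p = 8.80e-05). Calb2, a calcium-binding protein gene of interneurons and thalamus, averaged 5.75 ± 0.17 in DBA/2J and 6.68 ± 0.48 in A/J control mice (difference -0.9375, adjusted p = 0.0322). In DBA/2J mice Calb2 averaged 6.62 after risperidone and 5.75 in controls, a difference of 0.87 that did not pass (adjusted p = 0.224).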
